A study of Arabidopsis thaliana with 12 samples.

Results

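Chloroplasts carry a small genome of their own, and 65 of its protein-coding genes could be followed on the ATH1 arrays of this Arabidopsis thaliana study. A gene was taken if its reference locus tag begins with ArthCp and a probe set is paired with that gene alone. The gene also had to lie above a log2 signal of 4 on at least 2 of the 12 arrays. The reference table (RefSeq, TAIR10.1) lists 78 chloroplast gene symbols, of which 69 had such a probe set, each exactly 1, and 65 of these passed the signal filter among 11561 probe sets tested in all. By symbol they comprised 9 ndh genes, 5 psa, 15 psb, 6 atp, 5 pet, 3 rpo, 7 rps and 7 rpl genes. The remaining 8 were matK, ycf3, ycf4, rbcL, accD, cemA, clpP and ccsA.

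The chloroplast genome encodes core subunits of the photosynthetic complexes, while the nucleus encodes their other subunits and nearly all regulators. The psa and psb genes encode photosystems I and II, the pet genes the cytochrome b6f complex, the atp genes the ATP synthase, and the ndh genes the NADH dehydrogenase-like complex of cyclic electron flow. The rpo genes encode the plastid's own RNA polymerase, which reads most photosynthesis genes, and the rps and rpl genes encode proteins of its ribosome. Many chloroplast genes lie in clusters that are read as 1 long transcript and then cut, trimmed and edited with the help of nuclear-encoded RNA-binding proteins.

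The study compared 6 genotypes with 2 arrays each. The groups were the wild type (wt), the mutant aba3-1, and 4 lines named S14-150, S15-118, S58-2 and S82-2. ABA3 encodes the sulfurase that activates the molybdenum cofactor of the enzyme for the last step of abscisic acid synthesis, so aba3-1 plants are short of the hormone and have cold leaves. The series describes 4 recessive suppressor mutants found by thermal imaging as plants of aba3-1 background whose leaf temperature had reverted. That S14-150, S15-118, S58-2 and S82-2 are these lines follows from the series title and not from a label on each array. Their mutated genes and the accession of the wild type are not given in the sources used here. All plants were untreated, and RNA came from aerial parts of plants on compost at 21 °C with 8 h of light and 16 h of dark. The RNA was amplified before labelling, with a primer that is not given in the sources used here. Chloroplast transcripts mostly lack the long poly(A) tails of nuclear mRNA, so the values below are used only to compare arrays for 1 probe set at a time. No label says that replicates were separate plants, so p-values measure the spread between these arrays, which may be technical.

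The lists of deposited values hold log2 signals after GCRMA, a background correction and quantile normalization. The median over all tested probe sets lay between 5.72 and 5.77 on every array. The mean over the 65 genes was far less even. It was 9.38 and 9.79 in the wild type, 9.39 and 9.63 in aba3-1, 8.88 and 9.10 in S14-150, 9.27 and 9.42 in S15-118, 9.38 and 8.82 in S58-2, and 9.38 and 9.78 in S82-2 (replicates 1 and 2). Both S14-150 arrays and S58-2 replicate 2 were therefore the lowest of the 12, and the remaining 9 lay between 9.27 and 9.79. Since these are whole aerial parts, fewer chloroplasts or green cells and less RNA per chloroplast cannot be told apart. A technical difference between arrays, such as in the amplification, was not tested.

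**Figure D1:**
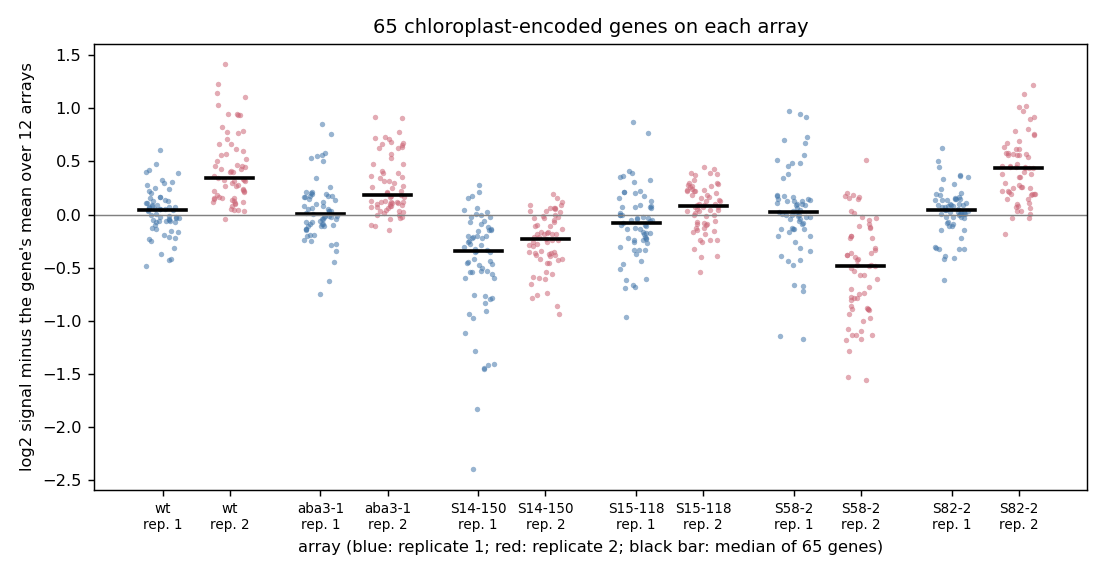
Each point is 1 of the 65 chloroplast-encoded genes on 1 array, drawn as its log2 signal minus that gene's mean over the 12 arrays, and black bars are medians. The medians are -0.34 and -0.23 on the S14-150 arrays and -0.49 on S58-2 replicate 2, against -0.08 to 0.44 on the other 9 arrays.

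The 2 S58-2 arrays stood apart from the rest and from each other. On S58-2 replicate 1 the control probe set for 25S ribosomal RNA read 3.77, where the remaining 11 arrays read 7.19 to 9.78. It also had the largest 3'-minus-5' difference of the GAPDH control, 2.06 against 1.40 to 1.82. S58-2 replicate 2 came from the smallest RNA amount in the labels, 5.1 µg against 6.8 to 15 µg. It gave the lowest value of 33 of the 65 genes (50.8%), while 16.5% of all tested probe sets had their lowest value there. Several results that rest on these arrays are given with and without them. For S14-150 the RNA amounts were 15 and 6.8 µg, the largest and the smallest outside S58-2 replicate 2. Its 25S control signals were 9.46 and 8.90. Its GAPDH differences were 1.82, the largest outside S58-2 replicate 1, and 1.74. The part of RNA amount or quality in the S14-150 values was not tested.

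Signal levels of the 65 genes spanned most of the array's range. Within the classes the brightest probe sets were those of ndhI (mean 12.52), psaB (12.09), psbM (12.75), atpB (13.31), petB (12.59), rpoA (11.19), rps4 (11.53) and rpl33 (11.31). The dimmest were ndhH (5.28), psaC (7.83), psbN (5.91), atpI (4.33), petN (4.47), rpoC2 (7.21), rps16 (5.23) and rpl20 (5.42). Probe sets differ in affinity, so these levels rank the probe sets and not the transcripts. At the filter's edge, atpI, petG and petN passed with 8, 9 and 11 of 12 arrays above 4. Just outside it, petD reached 3.89, rpoB 3.79, rps14 3.51 and ndhF 2.89 at most, and these 4 genes are not analysed further. The spread between replicates depended on the signal: the median SD within a group was 0.44 for genes with a mean up to 6 and 0.15 for those above 12. Over all 12 arrays, psaA varied most (SD 1.04), followed by atpF (0.81), psbD (0.80) and atpH (0.79), and psbJ (0.094) and petB (0.097) varied least.

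S14-150 had lower signals than the wild type across nearly the whole set. Of the 65 genes, 61 had a lower mean, 3 a higher one, and psbZ was equal. The median difference was -0.49 on the log2 scale, against -0.01 over all tested probe sets. It was -0.31 between the replicate 1 arrays and -0.59 between the replicate 2 arrays, and 50 genes (76.9%) were lower between both pairs of arrays, against 33.9% of all tested probe sets. Both S14-150 arrays lay below both wild-type arrays for 46 genes (70.8%), against 14.5% of all tested probe sets, and for no gene were they both above, against 14.6%. Measured against the parent aba3-1, 59 genes were lower and 6 higher, with a median of -0.36 and with 41 genes without overlap (63.1%, against 12.5%). Both comparisons use the same S14-150 arrays, so they are not independent.

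No single gene of the 65 passed an adjusted p of 0.05 in limma's moderated test without a replicate term, in either comparison. Of all tested probe sets 0.0605% and 0.0173% passed, so few calls were made anywhere. In the same test 18 genes were lower than in the wild type and 14 lower than in aba3-1 at an unadjusted p below 0.05 (27.7% and 21.5%), against 2.58% and 1.83% of all tested probe sets. The lowest adjusted p was 0.453, for ndhH against the wild type. Arrays of the same replicate number deviated together over all tested probe sets, so limma was also fitted with the number as a block. In that limma fit 2 of the 65 genes fell against the wild type: atpF by 1.56 (SE 0.29, adjusted p = 0.0341) and ndhH by 1.76 (SE 0.36, adjusted p = 0.0477), where 0.675% of all probe sets were called lower. Against aba3-1 the blocked fit called none, where 0.0865% of all probe sets were called in either direction. In that limma fit 19 genes were lower at an unadjusted p below 0.05, as were 614 of all 11561 tested probe sets.

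Leaving out both S58-2 arrays, a choice made after seeing the data, changed the blocked fit's calls. It then called 19 of the 65 genes lower in S14-150 than in the wild type, and none higher, where 2.06% of all tested probe sets were called lower. These were 6 ndh, 4 atp, 4 psb and 2 of the 8 remaining genes, with 1 each of psa, rps and rpl. The same fit called 7 genes lower than in aba3-1, with 0.502% of all probe sets lower: psaA, atpH, psbB, psbD, ndhG, ndhH and ndhK. With 1 more array left out, the counts were 5 to 14 against the wild type, where 0.58% to 4.96% of all probe sets were called in either direction. They were 0 to 2 against aba3-1, where 0.0173% to 0.381% were called. A group left with 1 array is assumed there to vary like the others. The difference of the medians did not rest on these arrays, since S58-2 enters neither mean.

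Photosystem I showed the largest single difference. The psaA probe set, for 1 of the 2 large core proteins of the reaction centre, read 7.56 and 9.10 in S14-150. It read 10.16 and 11.37 in the wild type, 10.81 and 10.87 in aba3-1, 10.03 and 10.40 in S15-118, and 9.81 and 10.40 in S82-2. S58-2 gave 10.14 and 8.82. The S14-150 arrays were thus below every array outside S58-2, although they differed from each other by more than 1 log2 unit. The difference from the wild type was -2.44 (SE 0.62, limma adjusted p = 0.526, and 0.0542 with the block), or 5.41-fold lower, and from aba3-1 -2.51. In limma's blocked fit without the S58-2 arrays psaA fell against both, with adjusted p = 0.00635 and 0.0178. Its partner psaB read 11.75 and 11.91 in S14-150 against 12.23 and 12.37 in the wild type, a difference of -0.47. The iron-sulfur subunit gene psaC and the small-subunit genes psaI and psaJ differed by -0.51, -0.37 and -0.28.

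Among photosystem II genes, 13 of 15 were lower in S14-150 than in the wild type. The psbD probe set, for the reaction-centre protein D2, read 6.75 and 7.70 in S14-150 and 8.43 and 9.10 in the wild type, a difference of -1.54 (SE 0.66). The groups did not overlap, and aba3-1 gave 8.32 and 8.79. For psbA, which encodes the partner protein D1 and turns over quickly in light, S14-150 gave 11.09 and 10.81 and the wild type 11.40 and 11.47, a difference of -0.49. The antenna genes psbB and psbC differed by -0.85 and -0.61, and the small-subunit genes psbK and psbH by -0.94 and -0.83. At the other end psbM, also a small subunit, read 12.76 and 12.91 against 12.53 and 12.80, a difference of 0.17 with overlapping groups. The cytochrome b559 cluster psbE, psbF, psbL and psbJ stayed within -0.39 to -0.04.

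The ATP synthase genes lie in 2 clusters. The c-ring gene atpH read 7.32 and 8.77 in S14-150, 9.24 and 10.18 in the wild type, and 9.70 and 10.06 in aba3-1. For atpF, which encodes a stalk subunit, S14-150 gave 8.23 and 9.32 against 9.76 and 10.90 in the wild type and 10.43 and 10.39 in aba3-1. Neither gene's S14-150 arrays overlapped with those groups, and the differences from the wild type were -1.67 for atpH (SE 0.53) and -1.56 for atpF. In the same cluster atpI, for the membrane subunit a, differed by -1.09 and atpA, for the catalytic alpha subunit, by -0.60. In the second cluster atpB, for the beta subunit, read 12.87 and 13.25 against 13.27 and 13.49 in the wild type, a difference of -0.32 without overlap. There atpE, for the epsilon subunit, read 13.13 and 13.23 in S14-150 against 13.13 and 13.24.

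All 9 ndh genes had a lower mean in S14-150 than in the wild type, and 8 had no overlap. The ndhK probe set read 5.48 and 6.48 in S14-150, 7.41 and 8.04 in the wild type, and 6.89 and 7.61 in aba3-1, a difference of -1.75 from the wild type (SE 0.54). The ndhH probe set read 4.17 and 4.63 against 5.89 and 6.42 in the wild type and 5.54 and 5.62 in aba3-1. That is close to the filter's edge, where a difference is compressed. The other ndh genes differed by -1.28 (ndhG), -1.15 (ndhJ), -0.81 (ndhA), -0.65 (ndhE), -0.55 (ndhD), -0.21 (ndhI) and -0.01 (ndhC). The ndhC arrays overlapped, at 10.88 and 10.97 against 10.86 and 11.01.

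The cytochrome b6f genes had the smallest class mean difference, although the median over genes was smaller for rpl (-0.18) than for pet (-0.22). The class mean was -0.32 below the wild type, against -0.90 for ndh, -0.87 for atp, -0.81 for psa, -0.68 for the 8 remaining genes, -0.46 for psb, -0.44 for rps and rpl, and -0.40 for rpo. The pooled SD between replicates of a class mean was 0.15 (rps) to 0.39 (ndh), and no test was run on class means. Within the class petA, for cytochrome f, differed by -0.20 and petB, for cytochrome b6, by -0.16, while petG, for a small subunit, read 4.52 and 3.54 against 4.16 and 5.26.

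**Figure D2:**
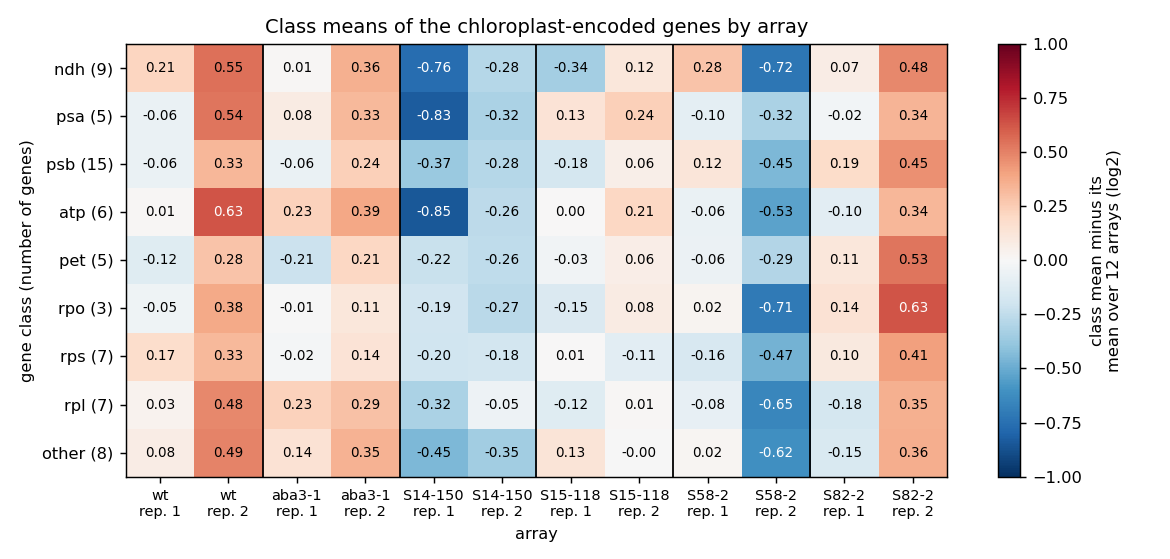
Rows are gene classes and columns the 12 arrays. Each cell gives the mean log2 signal of the class on that array minus its mean over all 12, from -0.85 for atp on S14-150 replicate 1 to 0.63 for rpo on S82-2 replicate 2. Every class is below 0 on both S14-150 arrays and on S58-2 replicate 2, and above 0 on replicate 2 of the wild type, aba3-1 and S82-2.

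Most genes of the expression machinery were lower too, with class means from -0.44 to -0.40. Of the subunits of the plastid RNA polymerase, rpoC2 read 6.86 and 6.93 in S14-150 against 7.38 and 7.88 in the wild type (-0.74). For rpoC1 the difference was -0.41, and rpoA overlapped at -0.06. The ribosomal protein genes ranged from -1.02 for rpl16 to 0.03 for rps15. The rps16 probe set read 4.70 and 4.86 against 5.63 and 5.63 (-0.85), and rps2 read 7.91 and 7.85 against 8.53 and 8.80 (-0.79). For rps15 the groups overlapped, at 6.84 and 6.67 against 6.67 and 6.79, and likewise for rpl20, with a difference of 0.02.

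The 8 genes outside the classes did not behave as a block. For accD, a subunit of the acetyl-CoA carboxylase that starts fatty acid synthesis, S14-150 gave 5.27 and 5.93 and the wild type 6.79 and 7.63 (-1.61, SE 0.50). The photosystem I assembly factors ycf4 and ycf3 differed by -1.04 and -0.91, the envelope protein gene cemA by -0.77, and the protease gene clpP by -0.70. The cytochrome maturation gene ccsA differed by -0.29 and the intron maturase gene matK by -0.14. The rbcL probe set, for the large subunit of Rubisco, read 6.68 and 6.60 in S14-150 against 6.63 and 6.72 in the wild type, with overlap.

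Of 13 transcript clusters with at least 2 tested genes, 5 held differences in S14-150 that spanned more than 1 log2 unit, and 8 spanned 0.96 or less. In the psaA cluster psaA differed by -2.44 and psaB by -0.47 (rps14 was below the filter). In the ndhC cluster the values were -1.75 for ndhK, -1.15 for ndhJ and -0.01 for ndhC. The psbD cluster ran from -1.54 for psbD over -0.61 for psbC to 0.00 for psbZ. The cluster of psaC and 6 ndh genes ran from -1.76 for ndhH to -0.21 for ndhI. The fifth, with rps2, atpI, atpH, atpF and atpA, ran from -1.67 to -0.60. Among the 8 narrower clusters, the psbB cluster ran from -0.85 to -0.16, psbE from -0.39 to -0.04, and rpl33 with rps18 from -0.18 to -0.13. Cluster membership is textbook knowledge. The order of the genes in the reference table places them side by side, except in the psbB and rpl23 clusters. In the former psbN lies between psbT and psbH, and in the latter infA has no place in that order. The size of the difference moved with the brightness of the probe set. The median was -0.77, -0.74 and -0.82 for genes with a mean up to 6, 6 to 8 and 8 to 10, but -0.28 and -0.21 for those at 10 to 12 and above 12. The part of brightness in these unequal values was not tested.

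**Figure D3:**
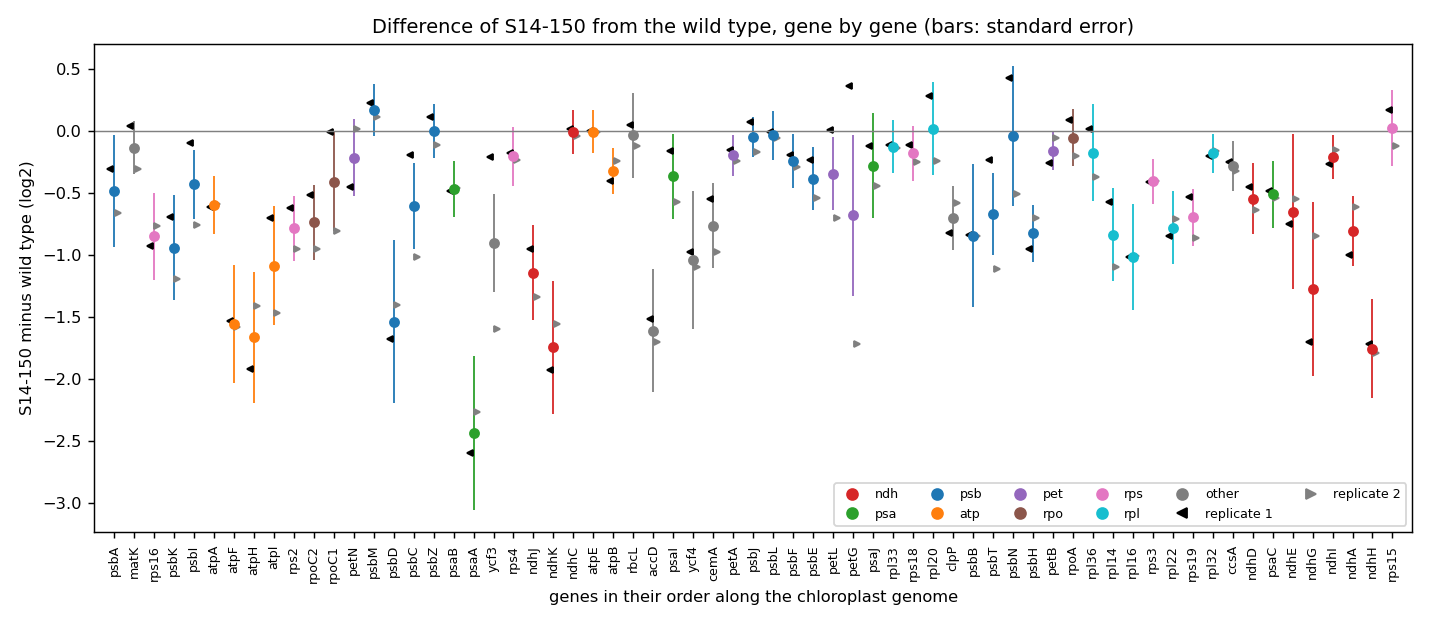
S14-150 minus wild type for the 65 genes, in their order along the chloroplast genome. Circles are mean log2 differences coloured by class with the standard error of limma's fit without a block, and triangles are the differences between arrays of the same replicate number. The values run from -2.44 for psaA to 0.17 for psbM.

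Nuclear genes for the same machinery gave smaller differences in S14-150. Of 64 such photosynthesis genes that were listed, 12 had a probe set paired with 1 gene and passed the filter. Their differences from the wild type ran from -0.26 to 0.07 with a median of -0.07, and 9 of 12 were lower. None was called by limma in either fit. NDHL, NDHN and NDHS, nuclear subunits of the complex to which the ndh genes belong, differed by -0.18, -0.15 and -0.22. Their probe sets had means of 7.93, 7.80 and 9.18. The other 9 were bright, with means of 11.6 to 13.1, where the chloroplast genes themselves had medians of -0.28 (10 to 12) and -0.21 (above 12). The part of brightness in this contrast was not tested. The photosystem I genes PSAE-1 and PSAN differed by -0.09 and 0.01. Of 31 nuclear genes for plastid ribosomal proteins, 7 could be tested, and their median was -0.06 with 6 of 7 lower and none called in either fit. Of 20 genes for sigma factors, phage-type polymerases and polymerase-associated proteins, only RPOTmp had a usable probe set, and it stayed at or below 2.60. Of the markers of other cell types, PYK10, a myrosinase of roots and hypocotyls, read 5.84 and 6.51 in S14-150 against 5.05 and 4.63 in the wild type (1.34, limma adjusted p = 0.661). It was also higher than the wild type by 0.695 in aba3-1, 2.09 in S15-118, 0.61 in S58-2 and 1.57 in S82-2. In these groups the chloroplast genes had medians of -0.05, -0.18, -0.34 and 0.02. The guard-cell regulators FAMA and SPCH stayed at or below 2.88 and 3.74 on all arrays. The part of tissue make-up in the result was not tested beyond these values.

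**Figure D4:**
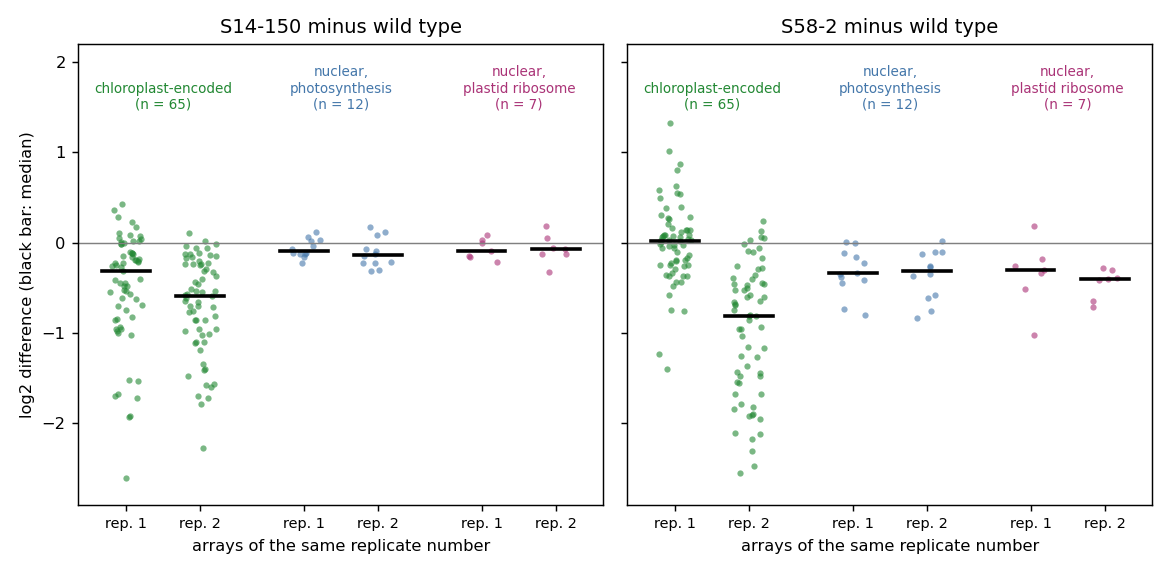
Log2 differences of S14-150 (left) and S58-2 (right) from the wild type, between arrays of the same replicate number, for 65 chloroplast-encoded genes, 12 nuclear photosynthesis genes and 7 nuclear genes for plastid ribosomal proteins. Black bars are medians: in S58-2 that of the chloroplast-encoded genes is 0.02 for replicate 1 and -0.81 for replicate 2, while that of the nuclear photosynthesis genes is -0.34 and -0.31.

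In S58-2 the 2 arrays gave different answers for the chloroplast genes. Over the group means 59 of 65 were lower than in the wild type, with a median of -0.34. Between the replicate 1 arrays, however, 31 genes were lower and the median was 0.02, while between the replicate 2 arrays 60 were lower and the median was -0.81. Only 24 genes had no overlap on the lower side (36.9%, against 19.3% of all tested probe sets). The class means show the same split. For ndh the difference was 0.07 for replicate 1 and -1.27 for replicate 2, for atp -0.08 and -1.16, for rpl -0.11 and -1.13, and for rpo 0.07 and -1.09. The rps class came nearest to a shared direction, at -0.33 and -0.80.

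No gene of the 65 was called between S58-2 and the wild type by limma without the block, against 3.23% of all tested probe sets in either direction. At an unadjusted p below 0.05, 15 were lower (23.1%, against 8.74%), and the lowest adjusted p was 0.103. With the block 9 genes fell, or 13.8%, near the 12.2% of all probe sets that were called lower in that fit. They were atpF, rpl14, ndhH, rps16, rps2, rps19, rpoC2, rbcL and ndhK, with limma adjusted p from 0.0044 to 0.0458. These counts moved with the S58-2 array kept. With only replicate 2 kept, the fit without the block called 3 genes and the blocked fit 40, where 3.48% and 29.2% of all tested probe sets were called in either direction. With only replicate 1 kept they called 0 and 5 (3 lower and 2 higher), against 0.848% and 17.1%. In these fits S58-2 has 1 array, which is assumed to vary like the other groups.

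For 28 of the 65 genes S58-2 was lower than the wild type between both pairs of arrays. The atpF probe set read 8.53 and 8.99, below every wild-type, aba3-1, S15-118 and S82-2 array, and differed from the wild type by -1.57 (blocked limma fit, SE 0.29, adjusted p = 0.0044). For rbcL the arrays read 5.23 and 6.07 against 6.63 and 6.72 in the wild type and 6.58 and 6.81 in aba3-1, a difference of -1.03, and here replicate 1 was the lowest of all 12 arrays. The ribosomal protein gene rpl14 read 7.31 and 6.60 against 7.89 and 8.72 (-1.35), and rps16 read 4.88 and 4.09 against 5.63 and 5.63 (-1.15). For 32 of the 65 genes (49.2%) S58-2 was lower than the wild type between the replicate 2 arrays only. Of all 11561 tested probe sets, 6118 were lower between the replicate 2 arrays and 4047 between both pairs. For psbB, the antenna protein CP47, the arrays read 10.34 and 8.27 against 10.13 and 10.44 in the wild type, and for ndhE they read 9.49 and 7.42 against 8.47 and 8.97. The psbN probe set, for an assembly factor of photosystem II, held both the highest and the lowest value of the gene in S58-2, 6.86 and 5.13. Against aba3-1, 56 of the 65 were lower with a median of -0.31 (-0.01 and -0.74 by replicate number). None was called by limma without or with the block, where 0.00865% and 0.104% of all probe sets were called. At an unadjusted p below 0.05 without it, 7 were lower (10.8%, against 1.89%). On the lower side 23 had no overlap (35.4%, against 12.3%).

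**Figure D5:**
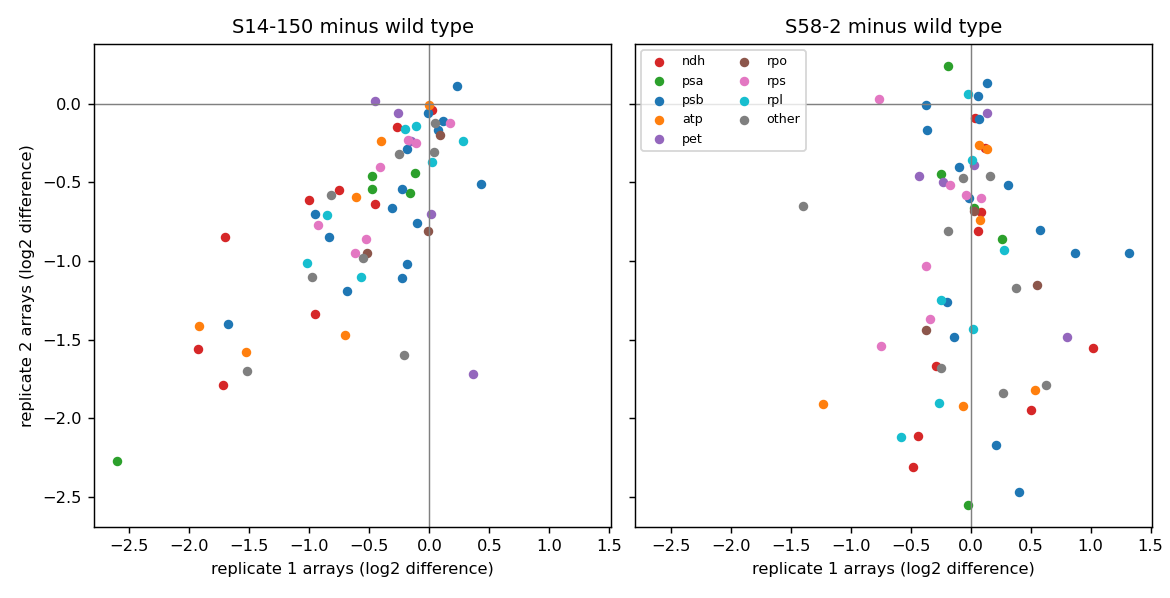
Each point is 1 of the 65 genes, coloured by class, with its log2 difference from the wild type between the replicate 1 arrays (horizontal) and the replicate 2 arrays (vertical). In S14-150 (left) 50 genes are lower for both numbers, and in S58-2 (right) 28 are, since replicate 1 is spread around 0 while replicate 2 is mostly below it.

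The nuclear lists had lower medians on both S58-2 arrays. All 12 nuclear photosynthesis genes were lower than in the wild type, with a median of -0.33 that was alike for both numbers (-0.34 and -0.31). None was called without the block and 3 fell with it: PSBY by 0.58, LHCB4.2 by 0.56 and NDHN by 0.64 (limma adjusted p = 0.0320, 0.0273 and 0.0269). All 7 nuclear ribosomal genes were lower, with a median of -0.37. PRPS6, for a protein of the small plastid subunit, fell by 0.87 in the fit without the block (SE 0.18, limma adjusted p = 0.0402). With the block it was called again (limma adjusted p = 0.00448), as was PRPL5, which fell by 0.46 (limma adjusted p = 0.0354). Of all tested probe sets, 51.7% had a lower mean in S58-2 than in the wild type. The fit without the block called 1.05% of them lower and the blocked fit 12.2%, so calls were common in the blocked fit.

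S15-118 lay slightly below the wild type. Of the 65 genes, 51 were lower, 12 higher and 2 equal, with a median of -0.18 against -0.04 over all tested probe sets. The arrays did not overlap on the lower side for 19 genes (29.2%, against 20.1%) and on the higher side for 0 (against 17.6%). Limma called none without or with the block, where 1.38% and 14.3% of all probe sets were called. At an unadjusted p below 0.05 without it, 1 was lower (1.54%, against 5.89%). Without the S58-2 arrays the blocked fit called 8 genes lower, or 12.3%, against 12.0% of all probe sets. These were ndhG, ndhH, ndhJ, ndhK, psbB, psbD, atpI and rps2. Of the 12 nuclear photosynthesis genes 11 were lower than in the wild type (median -0.17), and limma with the block on all 12 arrays called NDHL (fell by 0.57) and NDHS (fell by 0.53), with adjusted p = 0.0419 and 0.0476. The root and hypocotyl marker PYK10 read 7.20 and 6.65 against 5.05 and 4.63, and rose by 2.09 in that fit (limma adjusted p = 0.00625, and 0.0612 without the block). The part of tissue make-up here was not tested. The ndh class was the lowest, at -0.49. The largest difference was that of psbB, at 9.14 and 9.43 against 10.13 and 10.44 in the wild type and 9.92 and 10.55 in aba3-1 (-1 log2 unit, SE 0.58). The ndhG probe set read 5.36 and 6.39 against 6.74 and 6.99 (-0.99). In the other direction psaJ read 11.34 and 10.69 against 9.99 and 10.74, and petL read 7.45 and 7.48 against 6.67 and 7.51, both with overlap. Against aba3-1 the median was -0.12, with 16 genes without overlap below (24.6%, against 12.4%) and 5 above (7.69%, against 8.17%). None was called by limma without or with the block, where 0.0346% and 0.0865% of all probe sets were called, and none had an unadjusted p below 0.05 without it.

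S82-2 did not lie to 1 side of the wild type. There were 34 genes higher and 31 lower, with a median of 0.02, and 6 genes each without overlap above and below (9.23%, against 11.9% and 12.5%). Limma called none without or with the block, where 0.00865% and 0.467% of all probe sets were called, and none had an unadjusted p below 0.05 without it. Against aba3-1, 39 were higher and 24 lower with a median of 0.08. On the higher side 16 had no overlap (24.6%, against 16.5%) and on the lower side 10 (15.4%, against 17.8%). Again limma called none without or with the block (0 at an unadjusted p below 0.05 without it), where 0.502% and 5.86% of all probe sets were called. The 2 largest differences from the wild type on the higher side were psbN, at 6.54 and 6.47 against 5.54 and 6.08 (0.70), and psbK, at 11.47 and 12.10 against 10.83 and 11.42 (0.66). On the lower side were rbcL, at 5.79 and 6.22 against 6.63 and 6.72 (-0.67), and psaA (-0.66). Without the S58-2 arrays limma's blocked fit called 2 genes higher than in aba3-1, psbK by 0.90 (adjusted p = 0.0103) and ndhJ by 0.65 (adjusted p = 0.0480), against 2.91% of all probe sets higher.

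The parent aba3-1 differed little from the wild type in these genes. The median was -0.05, with 38 genes lower, 26 higher and psaC equal. The arrays did not overlap for 8 genes on the lower side (12.3%, against 14.8%) and 2 on the higher (3.08%, against 16.1%). Limma called none without or with the block, where 0.450% and 4.98% of all probe sets were called, and none had an unadjusted p below 0.05 without it. The largest differences were those of ndhJ, at 8.09 and 8.69 against 8.82 and 9.21 (-0.63), and ndhH, at 5.54 and 5.62 against 5.89 and 6.42 (-0.58). On the higher side psbA read 11.50 and 12.07 against 11.40 and 11.47 (0.35). Limma's F test over all 6 groups called 0 of the 65 genes without the block (8 at an unadjusted p below 0.05, lowest adjusted p = 0.327), against 1.30% of all tested probe sets. With the block limma called 4, namely atpF, psbT, psbH and psaA, or 6.15%, against 14.1%. Without both S58-2 arrays the F test without the block called 0 again, against 0.969%. The blocked F test is given with all 12 arrays only.

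Several genes kept almost the same signal in all 6 groups. The psbJ probe set stayed between 10.64 and 10.97 on the 12 arrays, petB between 12.34 and 12.74, ndhC between 10.71 and 11.13, and rpl32 between 10.54 and 10.92. For the 2 S14-150 arrays together, 3 genes lay below all other 10 arrays, psbK, psbI and psbH (4.62%, against 0.458% of all tested probe sets). If S58-2 replicate 2 is set aside, a choice made after seeing the data, 21 did (32.3%, against 0.813%). Those 21 came from every class except pet and rpl, and they included psaA, atpA, atpH, atpI, rps2, rpoC1, rpoC2, ndhA, ndhD, ndhH, ndhJ and accD.

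Replicate 2 arrays read the chloroplast genes higher than replicate 1 arrays in 5 of the 6 groups. The median of replicate 2 minus replicate 1 was 0.36 in the wild type, 0.19 in aba3-1, 0.14 in S14-150, 0.17 in S15-118 and 0.38 in S82-2, and -0.51 in S58-2. Genes higher on replicate 2 numbered 64, 53, 48, 44 and 60 of 65 in the first 5, and 16 in S58-2. Over all 11561 tested probe sets the group medians were -0.05 to -0.01, and 5168 to 5573 were higher. Limma's test over the 6 pairs called 5 genes higher and 0 lower, while 21.8% of all tested probe sets were called higher and 26.2% lower. The 5 were atpF, higher by 0.59 on average and in 5 of 6 groups (limma adjusted p = 0.0150), rps18 (0.26), rpl33 (0.26), psbM (0.25) and psbL (0.23). The photosystem II genes psbM and psbL and the ribosomal protein gene rpl33 were higher in 6 of 6 groups. Without the S58-2 arrays 23 genes were called higher (35.4%, against 23.3%) and none lower, and these held 7 psb, 5 ndh, 4 atp and 2 each of psa and rpl. The largest negative means, neither of them called, were those of rps16 (-0.18) and rps19 (-0.13). The 3' actin control moved the other way, at 9.95 to 10.34 on replicate 1 and 9.30 to 9.71 on replicate 2. What the replicate number stands for is not given in the sources used here.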

How the data were processed

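The authors deposited 1 table of log2 signals for 22810 probe sets on 12 ATH1 arrays, and GCRMA is the method that the submitters' processing notes name, without a version. That the log base is 2 was taken from the method and the values, which run from 1.82 to 13.93. Groups and replicate numbers come from the sample names. Probe sets were named through the platform annotation and the RefSeq table, and 64 control probe sets were set aside. The 65 genes and the comparison lists were chosen with earlier results of these data known, and chloroplast transcript clusters and nuclear lists were written from general knowledge. Mitochondrial-genome genes matched no entry and are not analysed here.

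All 11561 probe sets above 4 on at least 2 arrays were tested together with limma 3.58.1 in R 4.3.3, with 1 mean per group (6 residual degrees of freedom), empirical Bayes moderation and Benjamini-Hochberg adjustment per comparison at 0.05. The 9 comparisons set aba3-1 against the wild type and each line against both. Those that share the wild-type or aba3-1 arrays are not independent. An F test compared all 6 groups, and replicate 2 was tested against replicate 1 over 6 pairs. A second fit had the replicate number as a block. Over all tested probe sets, deviations of same-numbered arrays from their group means correlated in 15 of 15 pairs of groups (r from 0.708 to 0.872), so the numbers pair the arrays. Over the 65 genes alone r ran from -0.41 to -0.17 for pairs with S58-2 and from -0.11 to 0.59 for the others. Data were also simulated for S14-150 minus wild type, with a replicate effect shared by all groups and the spread of the blocked fit. On them the fit without the block recovered 10 of 50 probe sets changed by 1 log2 unit and 37 of 50 changed by 2. It made 0 false calls. The blocked fit recovered 36 and 46, with 10 false calls over all sizes. That setting favours the blocked fit, so the simulation cannot say which fit suits the 65 genes.

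Genes named in the text are the brightest and dimmest of each class, all 8 outside the classes, and per comparison up to 4 called genes per direction, or the 2 with the largest difference where none was called. Others were added after their values were seen. Alternatives were another filter, another scaling, array weights, an intensity trend, and arrays left out. With 2 arrays per group, their number limits the precision.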

Additional observations from a re-analysis of the deposited data

Results flagged for a closer look

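Between replicate 2 and replicate 1, the median difference of the 65 chloroplast genes was -0.51 in S58-2 and 0.14 to 0.38 in the other 5 groups, so S58-2 moved the other way. This difference between groups was not tested. The 2 S58-2 arrays also differed in the 25S ribosomal RNA control (3.77 and 7.62) and in the RNA amount in the labels (10 and 5.1 µg), and the part of these values in the difference was not tested. The nuclear photosynthesis genes, compared with the wild type, had medians of -0.34 and -0.31 on the same 2 arrays.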

How the results depend on the processing

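Of the count of called genes, the median difference and the class means, most values kept their direction and side of the threshold under the alternatives tried, and the exceptions follow. The cause of none of them was tested. With the replicate block limma called 2 genes for S14-150 and 9 for S58-2 against the wild type and 4 in the F test, where the fit without it called 0. Of all tested probe sets the blocked fit called 0.675% and 12.2% lower in these lines, and 14.1% in the F test. The block changed no other call between groups. For replicate 2 minus replicate 1 (5 called as reported), a fit without group terms and quantile normalization each gave 3, array weights 15, and leaving out both S58-2 arrays 23. Leaving out 1 array at a time gave 0 to 23 there, 23 without either S58-2 array, 0 without either wild-type array, 1 without an aba3-1 or S14-150 array, 2 without an S82-2 array and 3 without an S15-118 array. In the fits of replicate 2 against replicate 1 with arrays left out, 40.6% to 50.8% of all tested probe sets were called in either direction. With all 12 arrays the alternatives named here called 4318 to 6210 of 11561. For S58-2 against the wild type, leaving out 1 array gave medians of -0.63 (without S58-2 replicate 1) to -0.11 (without S58-2 replicate 2). Medians near 0 changed sign with 1 array left out: against the wild type from -0.22 to 0.12 in aba3-1, -0.33 to 0.02 in S15-118 and -0.15 to 0.15 in S82-2, and from -0.07 to 0.19 for S82-2 against aba3-1. That of S14-150 against the wild type ran from -0.74 to -0.30, the smaller one without wild-type replicate 2.

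Alternatives chosen after seeing the data combined the block with fewer arrays. Without both S58-2 arrays it called 19 genes lower for S14-150 against the wild type (29.2%, against 2.06% of all tested probe sets). Against aba3-1 it called 7 lower there (10.8%, against 0.502%). For S15-118 it called 8 lower than in the wild type (12.3%, against 12.0%) and 1 lower than in aba3-1 (1.54%, against 0.0605%). For S82-2 against aba3-1 it called 2 higher (3.08%, against 2.91%). With 1 more array left out, S14-150 against the wild type had 14 without wild-type replicate 1, 5 without wild-type replicate 2, 5 without S14-150 replicate 1 and 6 without its replicate 2. Against aba3-1 it had 2 without aba3-1 replicate 2 or S14-150 replicate 2, and 0 without either other array. With S58-2 kept, the blocked fit gave 0 to 1 for S14-150 against the wild type. For S58-2 against the wild type it gave 5 without wild-type replicate 1 and 0 without wild-type replicate 2. In that comparison it gave 40 without S58-2 replicate 1 and 5 without S58-2 replicate 2. For S58-2 against aba3-1 it gave 24 without S58-2 replicate 1 and 0 without S58-2 replicate 2. A group left with 1 array is assumed in these fits to vary like the others.

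Small differences changed sign when 1 array was left out: rpl20 in aba3-1 (-0.19 to 0.60) and, against the wild type, rps15 in S14-150 (-0.06 to 0.11), petL in S15-118 (-0.045 to 0.795) and psbN in S58-2 (-0.68 to 1.05). Against aba3-1 so did psbZ in S14-150 (-0.03 to 0.34), and in S58-2 psbN (-0.53 to 1.20) and psbK (-0.42 to 0.81). Taking the median signal of a class on each array in place of the mean moved 14 class differences by more than the spread between replicates. Probe sets differ in brightness, so such a median follows the genes of middle signal. It is not the median of the genes' own differences. That was -0.345 for psa in S14-150 against aba3-1, and 0.025 for pet in S15-118 against the wild type. With median signals the psa differences became -1.11 (S14-150), -1.01 (S58-2) and -0.33 (S82-2) against aba3-1. For S58-2 against the wild type the psa difference became -0.95. For pet they became 0.50 (S15-118) and 0.65 (S82-2) against aba3-1 and 0.38 and 0.53 against the wild type, and for rpo 0.64 for S82-2 against the wild type. For rps they became -0.04 and -0.20 (S14-150 and S58-2 against aba3-1) and -0.19 and -0.35 against the wild type, and for the 8 genes outside the classes -0.95 for S14-150 against aba3-1. Averaging several probe sets of a gene was not run, because each gene has 1. Dim probe sets near 4 compress differences, and 2 arrays per group limit every call.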

Other observations

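Genes in the inverted repeat of the chloroplast genome exist in 2 copies that share their probe sets, so they fall outside the 65. Of 7 such probe sets for 6 genes, 5 passed the filter. They gave lower means in S14-150 than in the wild type as well. A ribosomal protein gene with a trans-spliced transcript, rps12, read 6.99 and 7.63 against 8.10 and 8.77 on 1 probe set and 4.39 and 4.71 against 5.06 and 5.86 on the other, differences of -1.13 and -0.91 without overlap. The differences were -0.63 for rpl23, -0.51 for rps7 and -0.21 for rpl2. None was called by limma without the block, with adjusted p of 0.786 and more. In S58-2 the same probe sets differed from the wild type by -0.47 to -0.17. The probe sets for ycf2 and ndhB stayed at or below 2.77 and 2.39.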
